A study of Mus musculus with 44 samples.

Results

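The genes described here are the enzymes that build cholesterol, the factors that control and move sterols, and the enzymes that build and desaturate fatty acids, measured in mouse peritoneal macrophages. Membership was set by name: 32 genes were listed by role, and 31 of them were found by gene symbol among the 46078 genes of the count table. They are 17 sterol pathway enzymes, 7 genes of sterol control, sterol transport and the geranylgeranyl branch, and 7 genes of fatty acid synthesis. The row of Mvd, the mevalonate diphosphate decarboxylase, carried no symbol and was identified by its gene identifier, so its values are given apart and it enters no count of calls and no sum. All 31 passed the filter on low counts.

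Cells were taken from the peritoneum of C57BL/6 mice 4 days after a thioglycolate injection, pooled from several mice into a single isolate, and the cells adherent after 24 h were kept as macrophages. They were cultured in DMEM with fetal bovine serum. Every group, the untreated control included, shared that serum-containing medium. Cultures were left untreated or given an extract of H9c2 cells, a rat heart myoblast line, at 10 µg/mL, LPS, a bacterial cell wall component, at 100 ng/mL, or the cytokine IL-4 at 10 ng/mL. RNA was harvested after 8, 24 and 72 h, which makes 12 groups and 44 libraries. Groups had 4 cultures, apart from 3 in the control, extract and IL-4 groups at 72 h and the extract group at 24 h. Because all cultures came from the same isolate, each p-value measures the spread between cultures, not between mice. Same-numbered cultures shared deviations in part of the comparisons, as described below, and the main fit holds no replicate block. The study asks how macrophages respond to signals released by damaged cells, with LPS and IL-4 as the comparison stimuli.

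Cholesterol is made from acetyl-CoA through mevalonate, the isoprenoid diphosphates, squalene and lanosterol. Most genes of the route are switched on together by the transcription factor SREBP-2. When membrane sterol is plentiful, the Insig proteins hold SREBP and its escort Scap in the endoplasmic reticulum. When it falls, SREBP is carried to the Golgi, cleaved and released to the nucleus. SREBP-1 drives the fatty acid genes, and its gene also responds to the oxysterol-activated LXR receptors. In macrophages both interferon and Toll-like receptor signals are known to reshape the pathway.

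The upstream sequence of 5 members that behaved differently from one another is shown here, so that the motifs discussed below can be read in place. Hmgcs1 (chr13:119690379-119708260, plus strand) and Hsd17b7 (chr1:169949535-169969241, minus strand) are sterol enzymes, and Insig1 (chr5:28071363-28078662, plus strand) is the sterol-sensing brake. Fasn (chr11:120805846-120824547, minus strand) is the fatty acid synthase, and Ggps1 (chr13:14050659-14063488, minus strand) is the member called higher with LPS at each time. The Ggps1 calls at 8 and 72 h did not pass in 1 of 15 and 11 of 13 alternative fits, explained below. Gene positions are those of the GENCODE annotation of GRCm38, whose start sites can differ from those of RefSeq by some bases. Each stretch is the part of the 250 bases before the RefSeq start site on GRCm38.p6 that no annotated exon covers, written 5′ to 3′ on the gene's strand. Capitals mark TCACNCCAC, a sterol regulatory element, and CCAAT, the NF-Y box, on either strand.

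Hmgcs1, chr13:119690101-119690350: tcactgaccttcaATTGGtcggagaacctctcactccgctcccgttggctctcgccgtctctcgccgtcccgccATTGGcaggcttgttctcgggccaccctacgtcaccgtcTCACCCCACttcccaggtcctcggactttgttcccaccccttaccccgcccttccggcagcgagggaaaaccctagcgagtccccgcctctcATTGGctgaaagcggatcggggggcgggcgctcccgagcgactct
Hsd17b7, chr1:169969242-169969408: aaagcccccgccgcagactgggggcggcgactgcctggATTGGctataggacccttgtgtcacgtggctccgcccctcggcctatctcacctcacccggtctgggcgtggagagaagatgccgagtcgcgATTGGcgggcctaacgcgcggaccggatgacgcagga
Insig1, chr5:28071162-28071362: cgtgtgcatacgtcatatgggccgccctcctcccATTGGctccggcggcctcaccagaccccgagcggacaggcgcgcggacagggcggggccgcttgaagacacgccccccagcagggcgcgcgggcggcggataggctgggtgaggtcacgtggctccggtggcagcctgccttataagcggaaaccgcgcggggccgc
Fasn, chr11:120824548-120824797: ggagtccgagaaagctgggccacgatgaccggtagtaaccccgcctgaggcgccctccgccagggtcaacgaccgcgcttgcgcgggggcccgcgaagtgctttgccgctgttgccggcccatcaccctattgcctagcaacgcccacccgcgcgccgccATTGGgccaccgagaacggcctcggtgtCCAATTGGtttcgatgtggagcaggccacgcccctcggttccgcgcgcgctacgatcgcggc
Ggps1, chr13:14063490-14063603: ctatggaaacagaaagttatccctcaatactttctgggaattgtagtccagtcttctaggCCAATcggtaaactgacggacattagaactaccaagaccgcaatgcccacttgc

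The Hmgcs1 stretch holds 1 sterol regulatory element and 3 CCAAT boxes, the Hsd17b7 stretch 2 CCAAT boxes, the Insig1 and Ggps1 stretches 1 each, and the Fasn stretch 3. RefSeq windows were matched for 25 of the 32 listed genes, some with several start sites, giving 33 windows of 250 upstream bases, Mvd included. Searched on both strands, TCACNCCAC lay in 1 of the 33 windows (3.03%), that of Hmgcs1, against 1.05% of the 32851 windows of all genes. Only exact matches to this pattern were counted, so the absence of a match does not show that a window lacks a sterol regulatory element. CCAAT lay in 21 of 33 (63.6%) against 33.8% of all windows. The GC box GGGCGG lay in 23 of 33 (69.7%) against 32.7%, and the E-box CACGTG lay in 5 of 33 (15.2%) against 6.02%. Of the 15 sterol enzymes with a window, Mvd among them, 14 held CCAAT and 14 held GGGCGG. Every stretch shown holds CCAAT. The 5 genes were picked because they behaved differently from one another, so their motifs cannot be set against their responses.

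Libraries held 908458 to 26616968 gene counts. The control cultures at 72 h were among the smaller ones, at 1788577 to 4473580. Replicate libraries differed by more than sampling noise in each of 60 pairs, and no columns were identical. In 7 libraries, each numbered replicate 3, over 3% of the counts fell on Rn18s-rs5, a ribosomal RNA gene, with a maximum of 7.73%. Without these libraries, 283 of the 317 member calls over all comparisons described here held, and 5 others passed the threshold that had not done so with them. All 6 macrophage markers were read in every group, Nos2 and Il1b were higher with LPS and Arg1 and Chil3 higher with IL-4 at each time. A level is given as CPM, a gene's count scaled to the size of its library, with TMM factors. A difference is a log2 ratio ± its standard error from edgeR's quasi-likelihood fit over all 14537 genes tested. A gene is called when its Benjamini-Hochberg adjusted p is under 0.05. The alternative fits referred to are RLE size factors, no filter on low counts, a replicate block, DESeq2, the compared groups alone, the libraries rich in ribosomal RNA left out, control cultures numbered 1 left out, and each compared culture left out in turn. In these bulk RNA measurements fewer cells of a type and less RNA per cell cannot be told apart.

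The summed level of the 17 sterol enzymes moved up early and down late with extract, and was low with LPS at each time. It was 709.9 ± 36.7 CPM (SD, n = 4) in control at 8 h and 699 ± 29.1 (n = 4) at 24 h, and rose to 1235 ± 118 (n = 3) at 72 h. With extract it was 1095 ± 35.6 (n = 4), 991 ± 40.1 (n = 3) and 476 ± 8.49 (n = 3) at those times. With LPS it was 494 ± 45.2, 402 ± 20.7 and 427 ± 44.1 (each n = 4). With IL-4 it was 591 ± 27.5 (n = 4), 752 ± 38.0 (n = 4) and 444 ± 59.6 (n = 3). The extract cultures lay above all controls at 8 and 24 h and below all of them at 72 h, and the LPS cultures lay below all controls at each time. The IL-4 cultures lay below all controls at 8 h (highest 609 against lowest 655 CPM) and at 72 h (479 against 1116 CPM), and overlapped them at 24 h. The sums are not corrected for gene length, so the abundant members Msmo1, Cyp51, Hmgcs1 and Sc5d weigh most.

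The 7 fatty acid genes summed to 113 ± 21.1, 179 ± 19.5 and 385 ± 70.5 CPM in control at 8, 24 and 72 h. Their sum was 144 ± 17.7, 519 ± 38.5 and 179.6 ± 1.82 with extract, and 43.8 ± 8.11, 134 ± 18.7 and 168 ± 44.6 with LPS. With IL-4 it was 98.6 ± 29.9, 245 ± 81.7 and 174 ± 37.3. Scd2 made up most of the extract value at 24 h, and the LPS cultures at 8 h were the lowest of all groups.

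**Figure D1:**
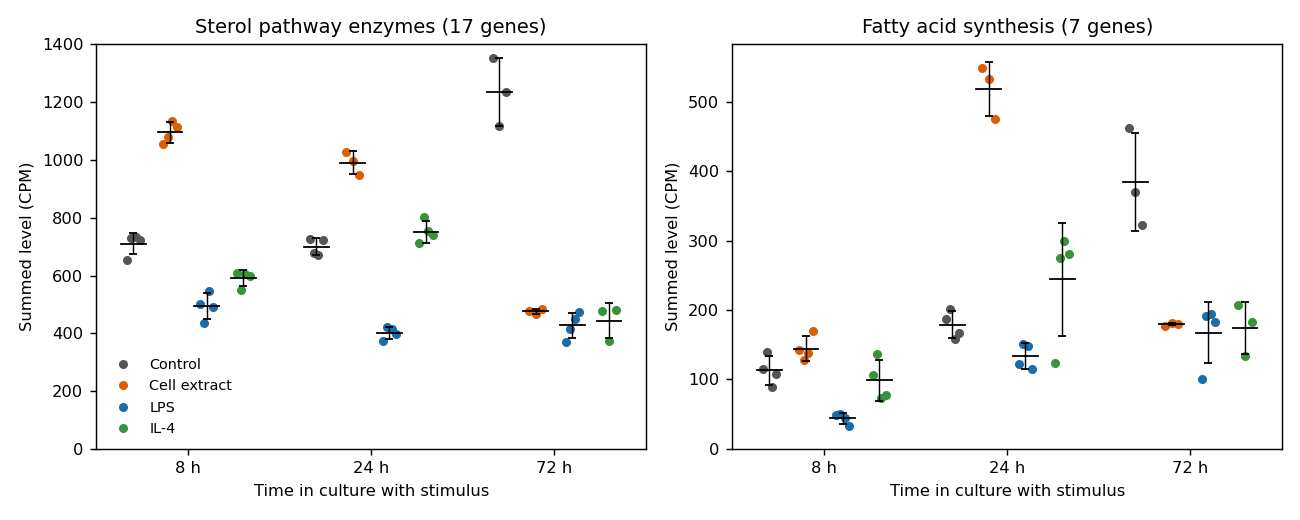
Summed level in CPM of the 17 sterol enzymes (left) and the 7 fatty acid genes (right) by time in culture, with 1 point per culture and bars for the mean ± SD. Sterol enzyme sums with extract average 1095 CPM at 8 h and 476 CPM at 72 h, while control averages 1235 CPM at 72 h.

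The untreated cultures themselves changed between 24 and 72 h, which sets the reference for every later comparison. From 8 to 24 h only 1 of 31 members was called, Scd2, a desaturase that makes monounsaturated fatty acids, which was higher (log2 0.98, edgeR adjusted p = 0.0298). Of all genes, 0.323% were called higher and 0.213% lower. That call did not pass in 8 of 15 alternative fits, with an adjusted p of 0.307 without the control cultures numbered 1, and Scd1 passed as higher in 3 of the 15. From 24 to 72 h, 18 members were higher and 0 lower, against 8.24% of all genes higher and 9.71% lower. They were 13 of the 17 sterol enzymes, 2 of the 7 control genes and 3 of the 7 fatty acid genes. Their median log2 difference over all 31 members was 0.73, against 0.02 over all genes.

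Cyp51, which demethylates lanosterol, went from 73.4, 65.3, 65.2 and 71.2 CPM at 24 h to 189, 144 and 180.4 at 72 h (log2 1.32 ± 0.14, edgeR adjusted p = 3.59e-08). Scd2 went from 67.7, 57.7, 47.2 and 59.3 CPM to 278, 219 and 202 (log2 2.01 ± 0.24, edgeR adjusted p = 3.58e-07). Scd1, its homologue, went from 9.39, 8.88, 8.99 and 9.45 to 52.8, 41.6 and 32.1 (log2 2.22 ± 0.38, edgeR adjusted p = 0.000183). Each was higher in all 3 late cultures than in any culture at 24 h. Of the 18 calls, 11 held in each alternative fit. Without control culture 1 at 72 h, those of Hmgcs1, Mvk, Hsd17b7, Stard4 and Elovl6 were lost, with adjusted p from 0.104 (Hsd17b7) to 0.234 (Hmgcs1). Sqle and Insig1 were lost without the libraries rich in ribosomal RNA, at 0.108 and 0.0666. Of the members not called, others passed in some of the 14 alternative fits, Insig2 in 5, Dhcr7 in 3 and Tm7sf2 in 1, each higher at 72 h.

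Markers of other cells rose in the control cultures over the same interval, with 3 of 6 tested mesothelial, 6 of 6 fibroblast and smooth muscle and 2 of 4 dividing cell markers called higher at 72 h than at 24 h. The 7 mesothelial markers summed to 21.7 CPM in control at 24 h and 76.3 (65.3 to 97.5) at 72 h, against 2.15, 2.75 and 10.3 CPM with extract, LPS and IL-4 at 72 h. The 6 fibroblast and smooth muscle markers summed to 221 CPM at 24 h and 736 ± 310 (516 to 1091) at 72 h in control, against 204, 194 and 133 CPM with extract, LPS and IL-4 at 72 h. The 4 markers of dividing cells went from 45.3 to 75.4 CPM in control, and were 30.9, 34.5 and 19.5 CPM with extract, LPS and IL-4 at 72 h. At 72 h, 6, 6 and 3 of the 6 tested mesothelial markers, 6, 6 and 6 of the 6 fibroblast markers and 4, 3 and 4 of the 4 dividing cell markers were called lower than control with extract, LPS and IL-4. All 7 mesothelial markers had reads in the control group at 72 h. The macrophage and neutrophil sums were not highest in control at 72 h. The 6 macrophage markers summed to 14118 CPM in control at 72 h, and to 27929, 16073 and 13438 CPM with extract, LPS and IL-4. The 5 neutrophil markers summed to 62.9 CPM in control at 72 h, and to 189, 543 and 46.7 CPM with extract, LPS and IL-4. The B cell, T cell, and eosinophil and mast cell lists had group means from 0.887 to 10.9 CPM at 72 h. The part of any of these cells in the sterol gene levels was not tested.

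**Figure D2:**
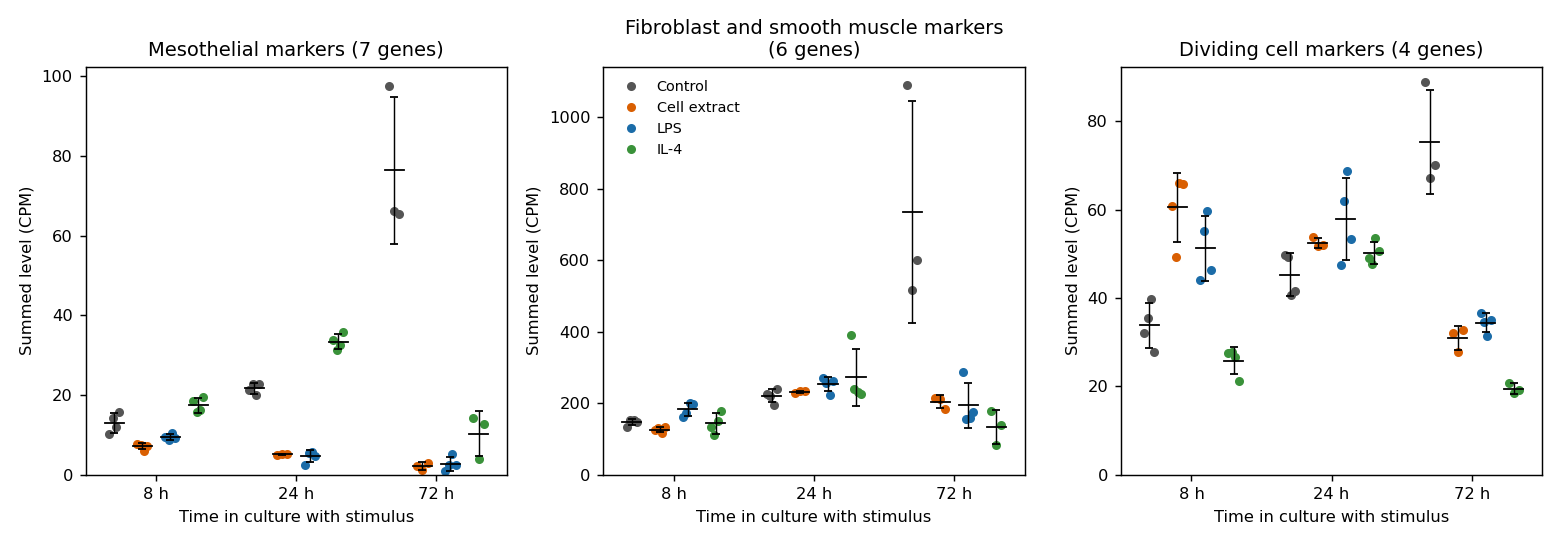
Summed level in CPM of mesothelial, fibroblast and smooth muscle, and dividing cell markers by time in culture, with 1 point per culture and bars for the mean ± SD. Control at 72 h has the highest mean in each panel, with mesothelial sums from 65.3 to 97.5 CPM, and its lowest dividing cell sum, 67.2 CPM, lies below the highest LPS culture at 24 h, 68.7 CPM.

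At 8 h 9 of the 17 sterol enzymes were higher with the cell extract, 7 did not pass the test, and 1 enzyme at the end of the route was lower. Of 31 members 13 were higher and 2 lower, against 13% of all genes higher and 17.2% lower. Among them 9 sterol enzymes, 3 control genes and 1 fatty acid gene rose, and 1 sterol enzyme and 1 fatty acid gene fell. The median log2 difference was 0.48 over the sterol enzymes and 0.41 over all members, against -0.06 over all genes.

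Idi1, which interconverts the isopentenyl and dimethylallyl diphosphates, read 49.6, 61.5, 63.9 and 66.3 CPM in control and 126, 129.9, 143 and 137 with extract (log2 1.15 ± 0.20, edgeR adjusted p = 1.07e-05). Fdft1, squalene synthase, stood at 60.1, 59.7, 60.1 and 53.4 CPM with extract against 23, 24.6, 28.3 and 25 in control (log2 1.21 ± 0.19, edgeR adjusted p = 2.12e-06). Sqle, squalene epoxidase and a slow step of the route, gave 47.2, 50.1, 45.2 and 50.7 CPM in control cultures and 97.7, 100.3, 95.1 and 104 with extract (log2 1.04 ± 0.13, edgeR adjusted p = 3.84e-08). All 4 extract cultures lay above all 4 controls for these genes. Cyp51 read 71.1, 71.6, 80.9 and 73.8 CPM in control and 169, 151, 170.4 and 169.7 with extract (log2 1.15 ± 0.13, edgeR adjusted p = 1.9e-09), again with no overlap. Hsd17b7, a ketosteroid reductase of the demethylation steps, stood at 32.3, 34.3, 43.3 and 38.4 CPM with extract against 9.45, 11.5, 9.59 and 9.16 in control (log2 1.88 ± 0.21, edgeR adjusted p = 1.38e-09), the largest rise among the sterol enzymes at this time. Dhcr7, which reduces the immediate precursor of cholesterol, went the other way and read 31, 33.7, 23.2 and 30.6 CPM in control and 9.39, 9.8, 7.75 and 11.4 with extract (log2 -1.62 ± 0.15, edgeR adjusted p = 9.39e-12). Its highest extract culture lay below its lowest control.

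Insig1, the brake on SREBP transport, gave 78.5, 92.7, 85.2 and 88.2 CPM in control cultures and 167, 174, 178 and 159 with extract (log2 0.98 ± 0.18, edgeR adjusted p = 4.25e-05). Stard4, a carrier of cholesterol between membranes, read 28.4, 36.7, 28.8 and 32.6 CPM in control and 55.2, 47.7, 60.5 and 51.2 with extract (log2 0.75 ± 0.18, edgeR adjusted p = 0.00105). Both were separated from control, whereas Srebf2, the gene of SREBP-2, overlapped it, as it gave 74.6, 64.2, 35.2 and 64.3 CPM in control cultures and 111, 86.3, 66.9 and 104 with extract (log2 0.63 ± 0.22, edgeR adjusted p = 0.0292). Scd2 stood at 53.8, 53.3, 51.8 and 71.3 CPM with extract against 27.5, 37.5, 24.8 and 26.3 in control (log2 0.98 ± 0.23, edgeR adjusted p = 0.000757), with all extract cultures above control. Fads1, a desaturase of polyunsaturated fatty acids, read 33.9, 39.8, 26.9 and 36.6 CPM in control and 26.4, 24.8, 23.8 and 29.3 with extract (log2 -0.40 ± 0.15, edgeR adjusted p = 0.0394), with 1 extract culture inside the control range. The other risers were Acat2, Hmgcs1, Lss and Msmo1, with log2 values from 0.44 (Hmgcs1) to 0.76 (Acat2). The calls of 12 members held in each alternative fit. Fads1 passed in 3 of 15 (highest adjusted p 0.222). Srebf2 did not pass in 4 (highest 0.106, without extract culture 1). Hmgcs1 was lost in 2 (highest 0.058, without the libraries rich in ribosomal RNA). Of the enzymes not called, Fdps (log2 0.75, edgeR adjusted p = 0.0538) was higher in 8 of 15, the replicate block (log2 0.77, adjusted p 0.00996) and the fit without the libraries rich in ribosomal RNA (log2 1.05, adjusted p 0.015) among them. Other members gained a call, Nsdhl in 4, Sc5d in 2 and Pmvk in 1.

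At 24 h 10 of the 17 sterol enzymes and 4 of the 7 fatty acid genes were higher with extract. Of 31 members 16 were higher and 0 lower, against 11.7% of all genes higher and 10.4% lower. They were 10 sterol enzymes, 2 control genes and 4 fatty acid genes. The median was 0.71 over the sterol enzymes and 1.08 over the fatty acid genes, against -0.06 over all genes. Dhcr7, low at 8 h, was at 29.1, 27.8 and 27.4 CPM with extract (log2 0.03 ± 0.15, edgeR adjusted p = 0.926) against 26.9, 31.1, 26.3 and 25.4 CPM in control, and the groups overlapped.

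Acat2, which joins acetyl-CoA units at the start of the route, read 7.41, 6.63, 5.97 and 9.45 CPM in control and 15.3, 13.4 and 16.6 with extract (log2 1.03 ± 0.21, edgeR adjusted p = 0.000209). Fdft1 stood at 44.9, 45.8 and 47.3 CPM with extract against 20.5, 21.8, 23.4 and 25.3 in control (log2 1.01 ± 0.20, edgeR adjusted p = 0.000147). Sqle read 55.1, 49.3, 43.7 and 51.3 CPM in control and 86.1, 80.8 and 76.6 with extract (log2 0.71 ± 0.14, edgeR adjusted p = 0.00015). Neither these nor the enzymes that follow overlapped control. Lss, which folds squalene epoxide into lanosterol, stood at 43.8, 44.7 and 42.6 CPM with extract against 22, 25.9, 23 and 21.5 in control (log2 0.92 ± 0.11, edgeR adjusted p = 2.58e-08). Cyp51 was at 135, 126 and 125 CPM with extract (log2 0.91 ± 0.14, edgeR adjusted p = 1.45e-06), above the control values given above. Hsd17b7 gave 12.8, 11.3, 10.7 and 12.4 CPM in control cultures and 27.1, 28.3 and 26.1 with extract (log2 1.21 ± 0.22, edgeR adjusted p = 3.29e-05). The extract cultures lay above control for each of the 3.

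Insig1 read 79.3, 74.8, 70 and 69.6 CPM in control and 158, 145 and 143 with extract (log2 1.02 ± 0.20, edgeR adjusted p = 7.58e-05). Stard4 stood at 57.7, 52.4 and 48.2 CPM with extract against 38.8, 36.3, 35.2 and 31.8 in control (log2 0.57 ± 0.19, edgeR adjusted p = 0.0252), a smaller difference. Scd2 showed the largest difference of the members at 24 h, with 345, 329 and 300.2 CPM with extract (log2 2.49 ± 0.24, edgeR adjusted p = 7.92e-11) against the control values given above, with no overlap. Fasn, fatty acid synthase, read 15.8, 17.9, 13.8 and 13.1 CPM in control and 29.9, 38.3 and 27.4 with extract (log2 1.08 ± 0.25, edgeR adjusted p = 0.00111). Scd1 was at 20, 21.4 and 17.8 CPM with extract (log2 1.11 ± 0.37, edgeR adjusted p = 0.0245). Fads1 stood at 68.8, 60.4 and 59.6 CPM with extract against 46.2, 50.9, 43 and 41 in control (log2 0.48 ± 0.16, edgeR adjusted p = 0.0235). Fads1 was thus called lower than control at 8 h and higher at 24 h, with no overlap at 24 h. The call at 8 h was lost in 12 of 15 alternative fits. The other risers were Idi1, Fdps, Msmo1 and Nsdhl. Of the 16 calls, 11 held in each alternative fit. Msmo1 did not pass in 6 of 14 (highest adjusted p 0.107, without the count filter) and Scd1 in 4. Fdps, Stard4 and Fads1 were lost in 3 each (highest 0.0614, 0.116 and 0.122, each with 1 culture left out). Calls were gained in some of the 14 fits by Acaca in 3, Fads2 in 3, Pmvk in 2, Ebp in 1, Srebf2 in 1 and Tm7sf2 in 1.

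At 72 h all 17 sterol enzymes were below control with extract. Of 31 members 0 were higher and 22 lower, against 14.2% of all genes higher and 12.2% lower. The 22 included 2 control genes and 3 fatty acid genes. The median was -1.27 over the sterol enzymes and -1.14 over all members, against 0.00 over all genes. The control cultures had risen by then, and held more of the mesothelial, fibroblast and dividing cell markers given above, whose part in these differences was not tested.

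Acat2 read 20.1, 11.4 and 20.9 CPM in control and 3.81, 4.13 and 5.6 with extract (log2 -1.94 ± 0.26, edgeR adjusted p = 2.06e-07). Hmgcs1, the cytosolic synthase that feeds mevalonate formation, stood at 58.9, 57.8 and 58.9 CPM with extract against 198, 123 and 142 in control (log2 -1.40 ± 0.17, edgeR adjusted p = 6.22e-08). Fdps, which makes farnesyl diphosphate and had the largest sterol enzyme difference, gave 29, 34.1 and 34.3 CPM in control cultures and 6.42, 5.63 and 6.16 with extract (log2 -2.39 ± 0.38, edgeR adjusted p = 6.44e-06). The 3 extract cultures lay below all 3 controls for each. Lss read 48.1, 35.2 and 37.5 CPM in control and 20.5, 19.9 and 19.7 with extract (log2 -1.02 ± 0.13, edgeR adjusted p = 1.35e-07). Cyp51 was at 41.4, 49.9 and 44.8 CPM with extract (log2 -1.92 ± 0.16, edgeR adjusted p = 2.93e-12). These, too, lay below control. Msmo1, a sterol methyl oxidase, stood at 106, 101 and 103 CPM with extract against 251, 220.4 and 223 in control (log2 -1.17 ± 0.16, edgeR adjusted p = 2.58e-07). Sc5d, a sterol desaturase, read 187, 154 and 148 CPM in control and 67.4, 66.4 and 69.6 with extract (log2 -1.27 ± 0.16, edgeR adjusted p = 1.26e-07), and neither it nor Msmo1 overlapped control. Hsd17b7 was at 12.6, 12.4 and 13.4 CPM with extract (log2 -1.0 ± 0.25, edgeR adjusted p = 0.00276) against 37.3, 18.1 and 19.3 CPM. Its call was lost without control culture 1, the highest of the 3 (log2 -0.52, adjusted p 0.185). Tm7sf2, a sterol reductase, overlapped control and did not pass in 7 of 12 alternative fits (highest adjusted p 0.272). Nsdhl did not pass without the libraries rich in ribosomal RNA (adjusted p 0.0631). Members outside the 22 that passed in some of the 12 fits were Fasn in 3, Fads2 in 1, Ggps1 in 1, Insig2 in 1 and Scap in 1.

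Stard4 stood at 25, 24 and 24.9 CPM with extract against 75.9, 44.8 and 51.4 in control (log2 -1.23 ± 0.22, edgeR adjusted p = 3.93e-05). Insig1 was at 62.9, 67.2 and 62.5 CPM with extract (log2 -0.96 ± 0.22, edgeR adjusted p = 0.00085) against 126, 124 and 124 CPM. Scd1 was at 7.75, 9.38 and 5.23 CPM with extract (log2 -2.57 ± 0.43, edgeR adjusted p = 1.5e-05). All 3 lay below every control culture. Scd2 was at 86.9, 76.6 and 81.9 CPM with extract (log2 -1.51 ± 0.26, edgeR adjusted p = 2.54e-05). Elovl6, which elongates palmitate, read 28.4, 12.1 and 13.4 CPM in control and 5.27, 4.88 and 6.35 with extract (log2 -1.73 ± 0.31, edgeR adjusted p = 3.98e-05). Neither overlapped control. Fads1, by contrast, was at 36.8, 40.2 and 38.9 CPM with extract (log2 -0.07 ± 0.18, edgeR adjusted p = 0.832) within the control range of 29.4 to 50.2 CPM. Mvd, kept outside the counts, read 22.7, 17.5, 17.4 and 20.4 CPM in control and 39.7, 33.1, 24 and 37.1 with extract (log2 0.79 ± 0.19, edgeR adjusted p = 0.00127) at 8 h. It stood at 15.9, 14.3 and 15.4 CPM with extract against 30.5, 34.8 and 45 in control (log2 -1.24 ± 0.24, edgeR adjusted p = 0.000115) at 72 h, higher than control early and lower late.

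**Figure D3:**
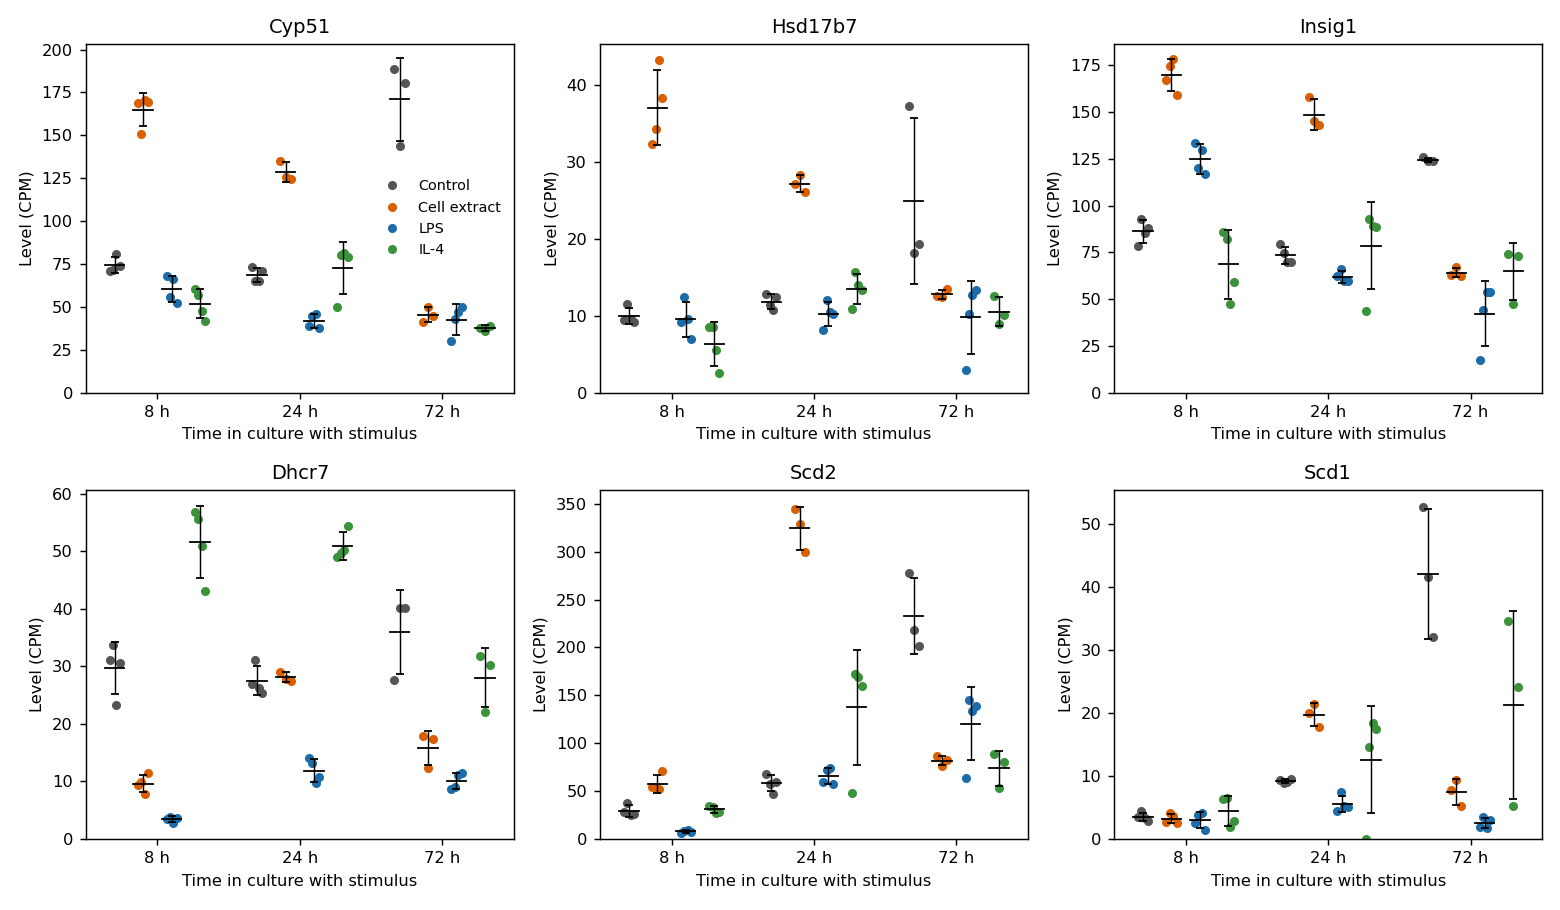
Level in CPM of Cyp51, Hsd17b7, Insig1, Dhcr7, Scd2 and Scd1 by time in culture, with 1 point per culture and bars for the mean ± SD. Extract values of Cyp51, Hsd17b7 and Insig1 lie above control at 8 and 24 h, and Dhcr7 lies above control with IL-4 and below it with LPS at 8 and 24 h.

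LPS lowered much of the set from 8 h, with exceptions in the control genes. At 8 h 2 members were higher and 16 lower, against 21.3% and 24.1% of all genes. Among them 10 sterol enzymes, 1 control gene and 5 fatty acid genes fell and 2 control genes rose. The median was -0.52 over the members and 0.00 over all genes. Idi1, Fdft1, Cyp51 and Hsd17b7, raised by extract at this time, were not called with LPS, with log2 values of -0.0, 0.10, -0.30 and -0.05.

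Dhcr7 had the largest difference, with 3.45, 3.81, 2.79 and 3.68 CPM with LPS (log2 -3.13 ± 0.18, edgeR adjusted p = 2.18e-18) against 31, 33.7, 23.2 and 30.6 CPM in control. Mvk, mevalonate kinase, read 10.8, 10.1, 11.2 and 11.6 CPM in control and 6.61, 5.86, 6.27 and 5.98 with LPS (log2 -0.82 ± 0.23, edgeR adjusted p = 0.00337). Sqle was at 23.6, 23.1, 30.2 and 29 CPM with LPS (log2 -0.86 ± 0.14, edgeR adjusted p = 1.5e-06). The LPS cultures lay below control for these 3. Lss stood at 8.05, 11.4, 12.5 and 9.21 CPM with LPS against 21, 21.5, 17.9 and 19.5 in control (log2 -0.93 ± 0.12, edgeR adjusted p = 1.26e-08). Msmo1 read 134, 159, 137 and 156 CPM in control and 110.4, 85.7, 107 and 107 with LPS (log2 -0.52 ± 0.13, edgeR adjusted p = 0.0014). Sc5d gave 80.1, 93.3, 102 and 83.8 CPM in control cultures and 48, 41.2, 54.2 and 42.8 with LPS (log2 -0.94 ± 0.14, edgeR adjusted p = 4.65e-07), also separated. Stard4 was at 16.4, 15.7, 17.8 and 13.3 CPM with LPS (log2 -1.0 ± 0.19, edgeR adjusted p = 3.37e-05), less than the control values given above, although it rose with extract at the same time.

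Insig1 was at 133, 120.1, 129.7 and 117 CPM with LPS (log2 0.54 ± 0.18, edgeR adjusted p = 0.0147) against 78.5, 92.7, 85.2 and 88.2 CPM, higher in all LPS cultures. Ggps1, which makes the geranylgeranyl diphosphate used to prenylate proteins, stood at 24.4, 27.4, 25.6 and 26.5 CPM with LPS against 17.7, 17.5, 21.4 and 15 in control (log2 0.55 ± 0.15, edgeR adjusted p = 0.00298), also higher in all 4. Fads1 was at 8.34, 7.47, 4.88 and 7.36 CPM with LPS (log2 -2.33 ± 0.17, edgeR adjusted p = 1.13e-14) against 33.9, 39.8, 26.9 and 36.6 CPM. Scd2 was at 6.32, 8.2, 9.06 and 6.9 CPM with LPS (log2 -1.91 ± 0.26, edgeR adjusted p = 4.92e-08) against 27.5, 37.5, 24.8 and 26.3 CPM. Both lay below control with no overlap. Fasn read 13.9, 14.2, 5.91 and 9.91 CPM in control and 7.76, 7.91, 5.46 and 5.06 with LPS (log2 -0.79 ± 0.27, edgeR adjusted p = 0.0149) and overlapped control. Acaca, which makes the malonyl-CoA used by Fasn, stood at 19.5, 17.1, 18.6 and 8.97 CPM with LPS against 31.6, 36.7, 22.2 and 25.8 in control (log2 -0.86 ± 0.27, edgeR adjusted p = 0.00772), separated from control. Elovl6 read 4.58, 6.72, 5.43 and 5.65 CPM in control and 2.87, 4.83, 1.28 and 2.76 with LPS (log2 -0.95 ± 0.29, edgeR adjusted p = 0.00608) and overlapped it. In the alternative fits 11 of the 18 calls held throughout. Fasn did not pass in 5 of 15 (highest adjusted p 0.0782), Nsdhl in 3 (0.134) and Ebp in 2 (0.061). Insig1 was lost without the libraries rich in ribosomal RNA (0.0604). Ggps1 was lost without the count filter (0.0507), Acaca without LPS culture 4 (0.057) and Elovl6 without LPS culture 3 (0.058). A call was gained by Cyp51 in 3 and Hmgcs1 in 1 of the 15 fits.

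At 24 h with LPS 1 member was higher and 13 lower, against 18.6% and 19.3% of all genes. There were 8 sterol enzymes, 2 control genes and 3 fatty acid genes among those that fell. The median was -0.46 over the members and -0.07 over all genes. Hmgcs1 read 121, 100.2, 95.5 and 106 CPM in control and 38, 50.7, 51.2 and 46.3 with LPS (log2 -1.17 ± 0.15, edgeR adjusted p = 2.16e-08). Sqle was at 21.3, 20.4, 23.6 and 19 CPM with LPS (log2 -1.24 ± 0.14, edgeR adjusted p = 9.38e-10) against 55.1, 49.3, 43.7 and 51.3 CPM. Cyp51 was at 38.6, 44.6, 45.6 and 37.8 CPM with LPS (log2 -0.72 ± 0.13, edgeR adjusted p = 1.82e-05) against 73.4, 65.3, 65.2 and 71.2 CPM. In all 3 the LPS cultures lay below control. Msmo1 stood at 68.2, 88.1, 78.3 and 79.6 CPM with LPS against 157, 132, 133 and 140.1 in control (log2 -0.83 ± 0.13, edgeR adjusted p = 2.4e-06). Sc5d read 82, 87.3, 90 and 90.7 CPM in control and 33.8, 38.1, 35.1 and 33.6 with LPS (log2 -1.31 ± 0.14, edgeR adjusted p = 4.59e-10). Dhcr7 was at 14, 13.2, 9.64 and 10.7 CPM with LPS (log2 -1.23 ± 0.15, edgeR adjusted p = 4.48e-09), below control but above its own LPS values at 8 h.

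Stard4 gave 38.8, 36.3, 35.2 and 31.8 CPM in control cultures and 12.6, 19.3, 18.3 and 13.9 with LPS (log2 -1.12 ± 0.19, edgeR adjusted p = 4.99e-06), with no overlap. Ggps1 read 15.1, 21.8, 16.3 and 16 CPM in control and 20.4, 28.2, 29.2 and 31.8 with LPS (log2 0.67 ± 0.15, edgeR adjusted p = 0.000354), an increase, although 1 LPS culture overlapped control. Scap, the SREBP escort, stood at 21.5, 16.7, 18.2 and 16.3 CPM with LPS against 26.4, 23.2, 21.2 and 24 in control (log2 -0.39 ± 0.16, edgeR adjusted p = 0.0489). This call did not pass in 11 of 15 alternative fits (highest adjusted p 0.135). Fads1 was at 17.1, 25.4, 21.7 and 20.3 CPM with LPS (log2 -1.08 ± 0.15, edgeR adjusted p = 1.7e-07). Elovl6 read 7.9, 8.67, 7.96 and 7.65 CPM in control and 2.8, 2.63, 2.47 and 2.27 with LPS (log2 -1.67 ± 0.28, edgeR adjusted p = 4.42e-06). Both lay below every control culture. Fasn read 15.8, 17.9, 13.8 and 13.1 CPM in control and 12.6, 10.4, 8.92 and 6.32 with LPS (log2 -0.70 ± 0.25, edgeR adjusted p = 0.027), and its call was lost in 3 alternative fits (highest 0.129, without LPS culture 4). Lss was lost in 4 (highest 0.231, without the count filter). In some of the 15 fits further members passed, Fads2 in 3, Acaca in 2, Scd1 in 2, Srebf1 in 2, Srebf2 in 2, Ebp in 1, Fdft1 in 1 and Insig1 in 1. Scd2, lowered at 8 h, was at 59.3, 72.3, 73.7 and 57 CPM with LPS (log2 0.19 ± 0.22, edgeR adjusted p = 0.567) and overlapped control.

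At 72 h with LPS 1 member was higher and 23 lower, against 16.1% and 15.4% of all genes. There were 15 sterol enzymes, 2 control genes and 6 fatty acid genes among those that fell. The median was -1.32 over the members and 0.05 over all genes, set against the raised control cultures with the marker levels given above. Their part was not tested. Hmgcs1 was at 32.8, 41.1, 49.1 and 50.3 CPM with LPS (log2 -1.81 ± 0.16, edgeR adjusted p = 8.21e-12). Sqle was at 15.4, 30.7, 30.9 and 28.9 CPM with LPS (log2 -1.39 ± 0.15, edgeR adjusted p = 9.18e-10). Lss was at 15.4, 11.8, 13 and 16.1 CPM with LPS (log2 -1.55 ± 0.13, edgeR adjusted p = 7.13e-13). These enzymes lie in the early and middle steps. Cyp51 was at 29.9, 43.1, 47.1 and 50.2 CPM with LPS (log2 -1.97 ± 0.14, edgeR adjusted p = 2.16e-14). Sc5d was at 29.9, 35.9, 39.5 and 41.5 CPM with LPS (log2 -2.13 ± 0.16, edgeR adjusted p = 2.82e-14). Dhcr7 was at 8.68, 8.97, 11.2 and 11.4 CPM with LPS (log2 -1.79 ± 0.17, edgeR adjusted p = 3.42e-11). The last 3 act after lanosterol. Control values of Sqle and Dhcr7 at 72 h were 60.2, 73.2 and 88.3 CPM and 27.6, 40.2 and 40.1 CPM, and those of the others are given above. All 6 enzymes were below every control culture.

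Insig1, which LPS had raised at 8 h, was at 17.4, 43.9, 53.8 and 53.7 CPM with LPS (log2 -1.49 ± 0.20, edgeR adjusted p = 1.39e-07), below control. Stard4 was at 21.2, 20, 24.4 and 22.7 CPM with LPS (log2 -1.39 ± 0.21, edgeR adjusted p = 8.93e-07), also below it. Ggps1 read 26.5, 18.1 and 18.2 CPM in control and 30.8, 25.8, 28.9 and 32.5 with LPS (log2 0.45 ± 0.18, edgeR adjusted p = 0.0488) and overlapped control. This call did not pass in 11 of 13 alternative fits (highest adjusted p 0.362), the replicate block among them (0.0805). Elovl6 was at 2.89, 1.4, 1.46 and 3.03 CPM with LPS (log2 -3.17 ± 0.33, edgeR adjusted p = 2.04e-10). Scd1 was at 1.93, 3.46, 1.65 and 2.91 CPM with LPS (log2 -3.96 ± 0.45, edgeR adjusted p = 1.99e-09). Both were separated from control. Fasn stood at 1.93, 2.62, 6.41 and 5.01 CPM with LPS against 17.6, 19.6 and 15 in control (log2 -2.02 ± 0.32, edgeR adjusted p = 2.82e-06). Fads1 was at 18.3, 16.6, 23.8 and 17.2 CPM with LPS (log2 -1.09 ± 0.18, edgeR adjusted p = 3.47e-06), below the control range. Fads2, the rarest member, had reads in part of the LPS cultures, 7 counts in all, against 21 counts in the 3 control cultures. Its log2 value of -3.01 (edgeR adjusted p = 0.00114) rests on few reads. Nsdhl was lost without control culture 3 (0.0555), and the other 22 calls held in each alternative fit. Further members passed in some of the 13 fits, Srebf1 in 3, Acaca in 2, Insig2 in 2, Ebp in 1 and Tm7sf2 in 1.

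IL-4 moved few members at 8 and 24 h, and Dhcr7 was the sterol enzyme it raised. At 8 h 1 was higher and 3 lower, against 4.29% and 4.04% of all genes. At 24 h 2 were higher and 1 lower, against 4.74% and 4.76%, which are small counts beside that background. Dhcr7 was at 56.9, 55.5, 50.9 and 43 CPM with IL-4 (log2 0.79 ± 0.14, edgeR adjusted p = 0.000108) at 8 h. It was at 49, 49.7, 50.2 and 54.4 CPM with IL-4 (log2 0.89 ± 0.14, edgeR adjusted p = 1.29e-05) at 24 h, in both cases above every control culture. Sc5d was at 61.7, 60.6, 58.4 and 44 CPM with IL-4 (log2 -0.68 ± 0.14, edgeR adjusted p = 0.00117) at 8 h, below all controls. Cyp51 was at 60.2, 57, 47.8 and 41.8 CPM with IL-4 (log2 -0.52 ± 0.13, edgeR adjusted p = 0.00839), also below them. Scd2 was at 47.9, 173, 169 and 159 CPM with IL-4 (log2 1.29 ± 0.23, edgeR adjusted p = 7.51e-05) at 24 h, where culture 1, the smallest library of the series, fell inside the control range and the other 3 lay above it. Fads1 was at 24, 32.3, 21.1 and 19.3 CPM with IL-4 (log2 -0.52 ± 0.16, edgeR adjusted p = 0.0359) at 8 h, overlapping control. It was at 39.2, 28.5, 30.8 and 28.5 CPM with IL-4 (log2 -0.56 ± 0.15, edgeR adjusted p = 0.0141) at 24 h, below all controls. Calls of Fads1 did not pass in 9 and 5 of 15 alternative fits, and that of Cyp51 in 3 (highest adjusted p 0.209, 0.0636 and 0.0855, each in the fit of the compared groups alone). Alternative fits added Idi1 in 6, Msmo1 in 2 and Stard4 in 1 of 15 at 8 h, and Fads2 in 1, Scap in 1 and Scd1 in 1 of 15 at 24 h. Only 2 members were called at 8 h without IL-4 culture 4.

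At 72 h with IL-4 0 members were higher and 22 lower, against 13.2% and 10.5% of all genes. There were 16 sterol enzymes, 2 control genes and 4 fatty acid genes among them and a median of -1.17 against 0.00 over all genes. RLE size factors shifted log2 differences by -0.11 here, taken from the group means of the scaling factors. They added calls, those of Dhcr7 and Scd1 given below among them. Acat2 was at 3.49, 4.89 and 3.89 CPM with IL-4 (log2 -2.10 ± 0.25, edgeR adjusted p = 2.18e-08). Pmvk, phosphomevalonate kinase, read 17.6, 16.7 and 21.9 CPM in control and 3.79, 3.77 and 3.82 with IL-4 (log2 -2.29 ± 0.28, edgeR adjusted p = 5.03e-08). Idi1 stood at 32.6, 19.9 and 32.4 CPM with IL-4 against 141, 114 and 106 in control (log2 -2.09 ± 0.24, edgeR adjusted p = 1.02e-08). Each IL-4 culture lay below every control. Cyp51 was at 37.9, 35.9 and 39.1 CPM with IL-4 (log2 -2.18 ± 0.15, edgeR adjusted p = 8.92e-14). Msmo1 was at 96, 67.7 and 94.7 CPM with IL-4 (log2 -1.43 ± 0.16, edgeR adjusted p = 5.12e-09). Sc5d was at 56.7, 42.1 and 56.9 CPM with IL-4 (log2 -1.66 ± 0.16, edgeR adjusted p = 5.1e-10), and none of the 3 overlapped control. Dhcr7 was the 1 sterol enzyme not called, at 31.7, 22.1 and 30.2 CPM with IL-4 (log2 -0.34 ± 0.17, edgeR adjusted p = 0.132). It passed as lower in 3 of 12 alternative fits, with RLE size factors (log2 -0.46, adjusted p 0.0405), with DESeq2 (log2 -0.44, adjusted p 0.0435) and without control culture 1 (log2 -0.50, adjusted p 0.0442).

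Stard4 was at 19.1, 13.8 and 19.2 CPM with IL-4 (log2 -1.73 ± 0.22, edgeR adjusted p = 9.26e-08). Insig1 was at 74.2, 47.2 and 73.1 CPM with IL-4 (log2 -0.94 ± 0.21, edgeR adjusted p = 0.00113). Both were below control. Scd2 was at 88.2, 52.8 and 79.7 CPM with IL-4 (log2 -1.66 ± 0.26, edgeR adjusted p = 6.93e-06). Elovl6 was at 6.9, 4.12 and 6.5 CPM with IL-4 (log2 -1.65 ± 0.30, edgeR adjusted p = 5.27e-05). Fasn was at 8.26, 8.04 and 7.64 CPM with IL-4 (log2 -1.13 ± 0.30, edgeR adjusted p = 0.00528). These lay below all control cultures. Scd1 was not called and varied widely, at 34.6, 5.17 and 24.2 CPM with IL-4 (log2 -0.99 ± 0.39, edgeR adjusted p = 0.0586). It passed as lower in 5 of 12 alternative fits, with RLE size factors, without the count filter, with DESeq2, with the replicate block (log2 -1.17, adjusted p 0.0214) and without IL-4 culture 2 (log2 -1.52, adjusted p 0.0112). Fads2 had 14 counts over the 3 IL-4 cultures against 21 in the smaller control libraries (log2 -3.13, edgeR adjusted p = 0.000756). Tm7sf2, Nsdhl and Ebp did not pass in 7, 4 and 2 of 12 alternative fits (highest adjusted p 0.212, 0.127 and 0.0895). Members not called that passed there were Fads1 in 3, Insig2 in 1 and Srebf2 in 1. The comparisons with extract, LPS and IL-4 at a given time share their control cultures, so the falls at 72 h are not independent of one another.

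**Figure D4:**
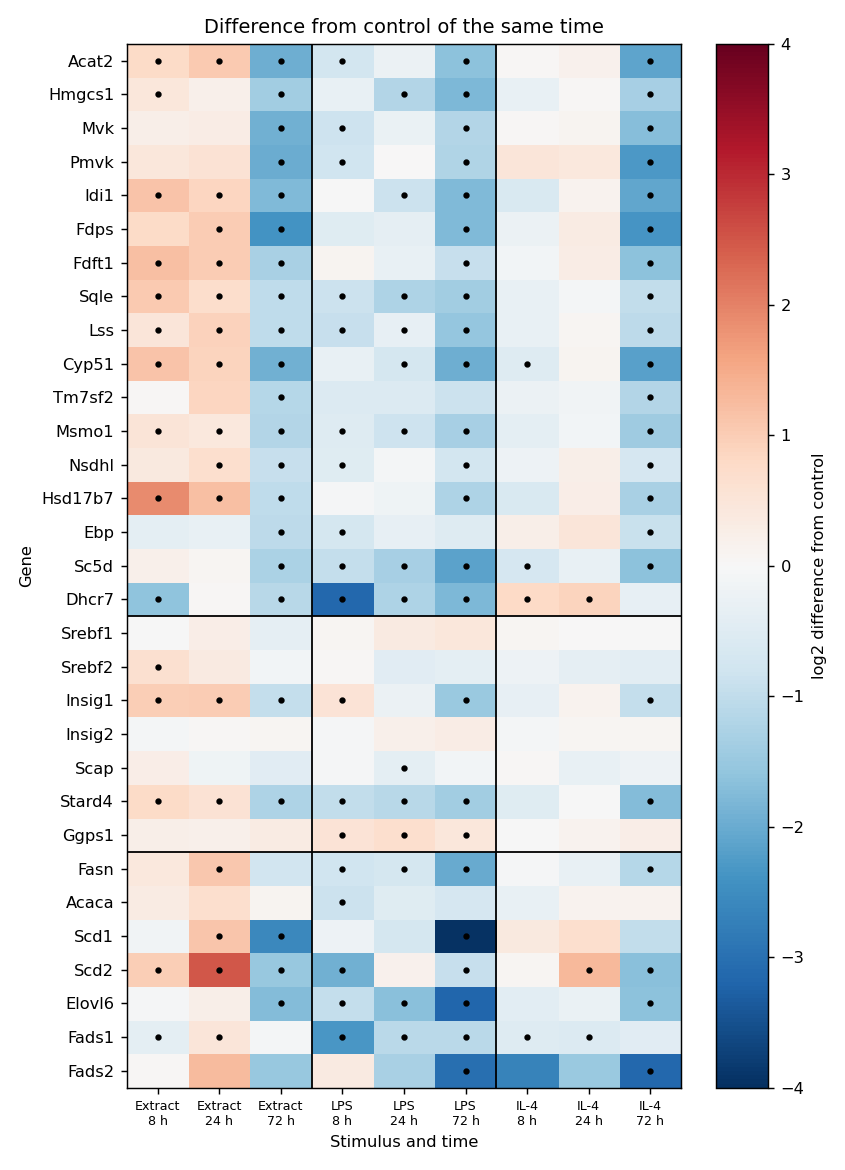
Log2 difference from control of the same time for the 31 members in rows, by role and in pathway order, and the 9 stimulus and time comparisons in columns, with a dot where the Benjamini-Hochberg adjusted p is under 0.05. Extract has 13 higher members at 8 h and 22 lower at 72 h, and Dhcr7 differs from its neighbours in the IL-4 columns at 8 and 24 h.

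Of the 31 members, 29 were called in at least 1 of the 9 comparisons with control. The other 2 were Srebf1, the gene of SREBP-1, and Insig2, the homologue of Insig1. The share of all genes called at least once was not computed, so the count of 29 cannot be set apart from it. With LPS at 8 h alone, 21.3% of all genes were called higher and 24.1% lower. Insig2 read 38.1, 40.4, 44.4 and 42.1 CPM in control at 8 h, and its log2 values ran from -0.09 to 0.28. Without control culture 1 at 72 h, Insig2 passed as higher with extract (log2 0.40, adjusted p 0.048), LPS (log2 0.60, adjusted p 0.00125) and IL-4 (log2 0.42, adjusted p 0.0387), against 0.07, 0.28 and 0.09 with all cultures. Srebf1 passed as higher with LPS at 72 h in 3 of 13 alternative fits, among them the replicate block (log2 0.51, adjusted p 0.0211), and at 24 h in 2 of 15. Srebf2 was called with extract at 8 h and in none of the other 8 comparisons with control. In the fits of the compared groups alone it also passed with extract at 24 h (log2 0.39, adjusted p 0.0432), LPS at 24 h (log2 -0.46, adjusted p 0.01) and IL-4 at 72 h (log2 -0.49, adjusted p 0.0357).

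Whether a stimulus acted differently late and early was tested as the effect at 72 h minus the effect at 8 h, each effect set against the control of its own time, so the difference includes the change in the control cultures. With extract 21 members differed, all lower at 72 h (0 higher, 21 lower, against 13.1% and 8.75% of all genes), among them 14 sterol enzymes, 3 control genes and 4 fatty acid genes. The change was -3.14 for Fdps, -3.07 for Cyp51, -2.91 for Idi1 and -2.05 for Sqle on the log2 scale (edgeR adjusted p = 5.69e-06, 3.07e-14, 3.78e-09 and 1.47e-09). Of the members, 12 were called higher at 8 h and lower at 72 h with extract: Acat2, Hmgcs1, Idi1, Fdft1, Sqle, Lss, Cyp51, Msmo1, Hsd17b7, Insig1, Stard4 and Scd2. Of all genes, 13% were called higher at 8 h and 12.2% lower at 72 h with extract, and the share with both calls was not computed. In the difference of effects with LPS, 3 members were higher and 16 lower, against 15.7% and 14.3% of all genes. The 3 were Dhcr7, Fads1 and Scd2, whose fall was deepest at 8 h (1.35, 1.24 and 0.98), and the lower ones included Insig1 (-2.02), Cyp51 (-1.67) and Scd1 (-3.77). With IL-4 0 were higher and 17 lower, against 9.51% and 6.57%, including Pmvk (-2.77), Cyp51 (-1.67) and Dhcr7 (-1.13). In alternative fits 18 of 21, 11 of 19 and 13 of 17 of these calls held throughout. Scap was lost with extract under the replicate block (adjusted p 0.0553), and Scd2 with LPS without the libraries rich in ribosomal RNA (0.132). Calls gained with extract were Tm7sf2 in 2, Ebp in 1, Insig2 in 1 and Srebf2 in 1 of 21 fits, with LPS Insig2 in 1 of 22 and with IL-4 Fasn in 5, Insig1 in 2, Scd1 in 2 and Insig2 in 1 of 21. In the same differences of effect 5, 4 and 4 of the 6 tested mesothelial markers, 5, 6 and 5 of the 6 fibroblast and smooth muscle markers and 3, 4 and 4 of the 4 dividing cell markers were lower with extract, LPS and IL-4, and none higher. Their part was not tested.

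A comparison of stimulated cultures with themselves, 72 h against 24 h, uses no control culture, and was added after the data were seen. With extract 0 members rose and 25 fell, against 7.13% and 7.49% of all genes, with a median of -1.09. They were 14 sterol enzymes, 5 control genes and 6 fatty acid genes. Cyp51 went from 135, 126 and 125 to 41.4, 49.9 and 44.8 CPM (log2 -1.51 ± 0.15, edgeR adjusted p = 1.71e-09). Scd2 went from 345, 329 and 300.2 to 86.9, 76.6 and 81.9 CPM (log2 -1.99 ± 0.26, edgeR adjusted p = 5.68e-07), and neither overlapped. Over the same interval the mesothelial, fibroblast and smooth muscle, and dividing cell sums of the extract cultures went from 5.12 to 2.15, 232 to 204 and 52.5 to 30.9 CPM, with 1 of 6, 3 of 6 and 1 of 4 markers called lower and 1 fibroblast marker higher. Their part was not tested. With LPS 3 rose (Scd2, Insig2 and Sqle) and 3 fell (Fasn, Insig1 and Lss), against 18.9% and 16.3%, with a median of -0.01. With IL-4 1 rose and 14 fell, against 6.97% and 5.52%, with a median of -0.53. In the fit of the IL-4 groups alone 5 members were called in place of 15. Of the calls, 20 of 25, 2 of 6 and 5 of 15 held in each alternative fit with extract, LPS and IL-4. Gained calls were Tm7sf2 in 4, Sc5d in 3, Elovl6 in 2, Ggps1 in 2, Insig2 in 2 and Ebp in 1 of 12 with extract, Scd1 in 5, Acaca in 2, Stard4 in 2, Dhcr7 in 1, Msmo1 in 1 and Nsdhl in 1 of 14 with LPS and Nsdhl in 5, Sqle in 3, Lss in 2, Ggps1 in 1 and Scd1 in 1 of 13 with IL-4.

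Set directly against LPS, the extract gave higher levels of most members at 8 and 24 h. At 8 h 21 were higher with extract and 0 lower, against 14% and 15.1% of all genes. They were 15 sterol enzymes, 1 control gene and 5 fatty acid genes, and the median over all members was 1.11. At 24 h 24 were higher and 1 lower, against 8.06% and 8.76%. They were 14 sterol enzymes, 3 control genes and all 7 fatty acid genes, and the median was 1.31. Sqle differed by 1.90 ± 0.14 at 8 h and 1.95 ± 0.15 at 24 h (edgeR adjusted p = 1.89e-14 and 3.8e-13). Cyp51 differed by 1.45 ± 0.13 and 1.62 ± 0.14 (6.83e-12 and 9.87e-12), and Scd2 by 2.89 ± 0.26 and 2.30 ± 0.24 (5.71e-12 and 1.09e-09). The extract cultures of these genes lay above all LPS cultures. Ggps1 was the 1 member lower with extract at 24 h (log2 -0.47, adjusted p 0.0348), a call that did not pass in 7 of 13 alternative fits. Among members not called, Srebf2 was higher with extract at 8 h in 10 of 14 fits (log2 0.57, edgeR adjusted p = 0.0509), followed by Insig1 in 7 and Ebp in 1, and at 24 h Mvk in 3 and Pmvk in 1 of 13 passed. Dhcr7, low with both at 8 h, was 1.51 ± 0.18 higher with extract than with LPS.

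At 72 h the stimuli were closer, with 8 higher and 3 lower, against 11% and 11.4% of all genes, and a median of 0.15. The higher ones were Lss, Sc5d, Dhcr7, Fasn, Acaca, Scd1, Elovl6 and Fads1, with Elovl6 at 1.44, Scd1 at 1.39, Fasn at 1.25 and Fads1 at 1.02 on the log2 scale. The lower ones were Srebf1 (-0.81), Mvk (-0.77) and Pmvk (-0.78). Mvk, Pmvk, Acaca and Scd1 did not pass in 9, 9, 6 and 5 of 13 alternative fits. Calls were gained in the same fits by Insig1 in 5, Sqle in 4, Hmgcs1 in 3 and Scd2 in 3. Without the libraries rich in ribosomal RNA 7 members were called, and without extract culture 2 or 3 also 7. Cyp51 was at 41.4, 49.9 and 44.8 CPM with extract and 29.9, 43.1, 47.1 and 50.2 CPM with LPS, an overlap.

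**Figure D5:**
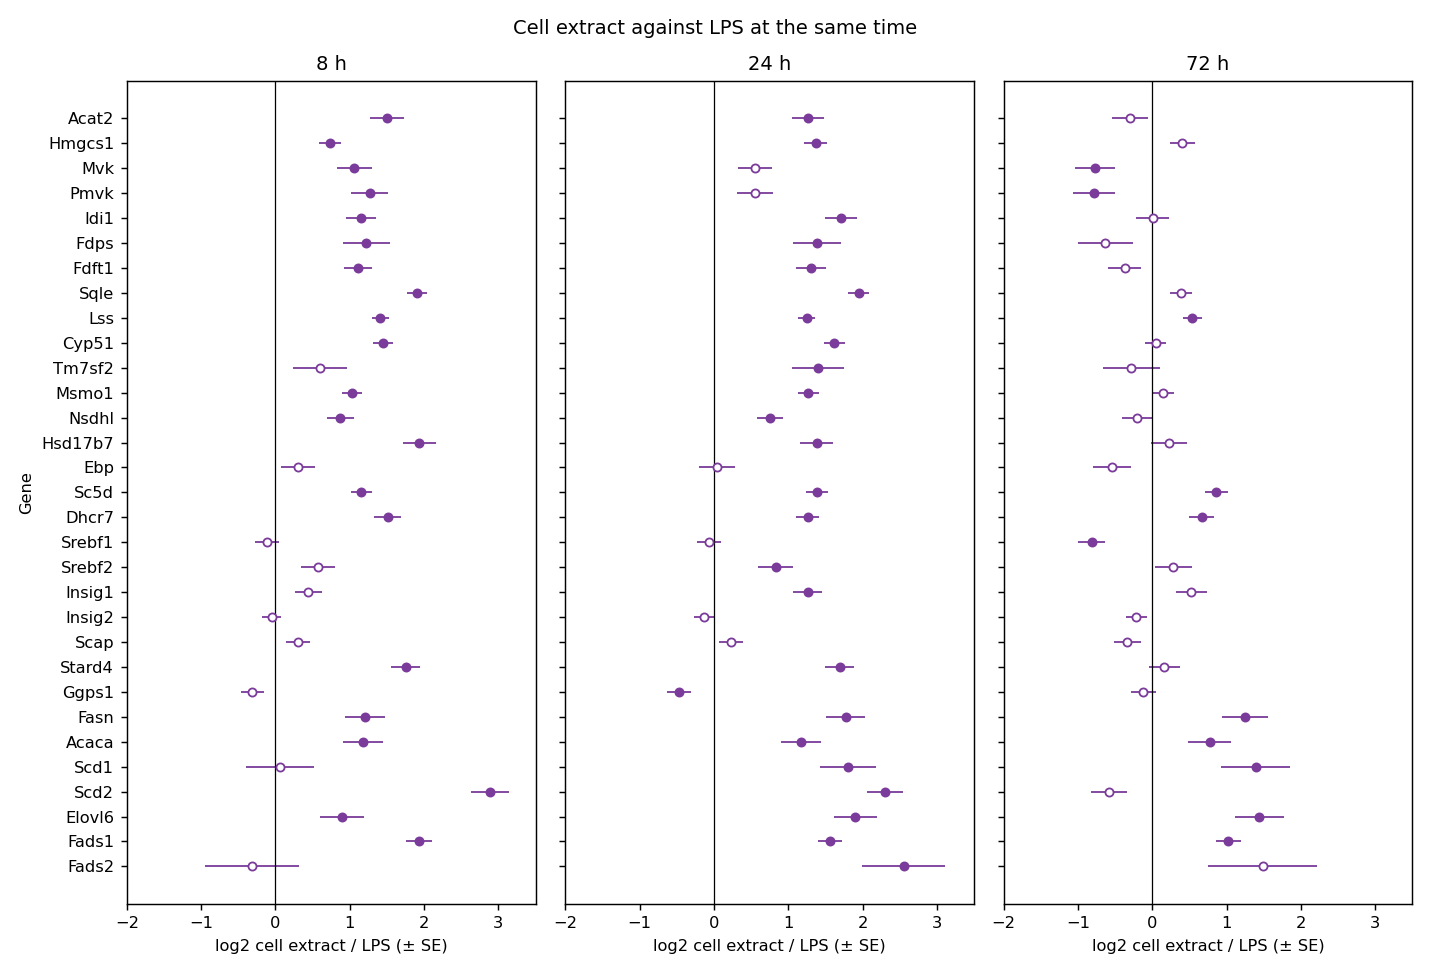
Log2 ratio of cell extract to LPS for the 31 members at 8, 24 and 72 h, with bars for ± SE and filled points where the Benjamini-Hochberg adjusted p is under 0.05. At 8 and 24 h, 21 and 24 members are higher with extract, and at 72 h 8 are higher and 3 lower.

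Genes around the pathway are given by list, in counts called at 8, 24 and 72 h. Counts with IL-4 are given for the supply and LXR lists only. Of all genes, 13%, 11.7% and 14.2% were higher and 17.2%, 10.4% and 12.2% lower with extract. With LPS 21.3%, 18.6% and 16.1% were higher and 24.1%, 19.3% and 15.4% lower, and with IL-4 4.29%, 4.74% and 13.2% were higher and 4.04%, 4.76% and 10.5% lower. Lists of 7 or 8 genes hold too few to set a count of 1 or 2 apart from these shares. Genes that supply acetyl-CoA and NADPH were called in both directions. Of 15 genes of acetyl-CoA, NADPH and acyl-CoA supply, 7, 9 and 3 were higher and 2, 1 and 3 lower with extract at 8, 24 and 72 h. With LPS 2, 6 and 4 were higher and 4, 2 and 5 lower. With IL-4 0, 0 and 3 were higher and 2, 0 and 4 lower. Acsl1, which activates long-chain fatty acids, averaged 369.9 against 49.2 CPM (log2 2.91 ± 0.17, edgeR adjusted p = 3.83e-17) with extract at 8 h. It averaged 1051 against 41.4 CPM (log2 4.67 ± 0.21, edgeR adjusted p = 8.44e-20) with LPS at 72 h. Idh1, a cytosolic source of NADPH, averaged 107 against 312 CPM (log2 -1.54 ± 0.14, edgeR adjusted p = 4.42e-12) with extract at 8 h. It averaged 24.5 against 312 CPM (log2 -3.68 ± 0.15, edgeR adjusted p = 2.69e-22) with LPS at 8 h. Pgd, an NADPH source of the pentose phosphate route, averaged 665 against 268 CPM (log2 1.31 ± 0.13, edgeR adjusted p = 1.2e-10) with extract at 24 h. Acss2, which makes acetyl-CoA from acetate, averaged 36.4 against 6.86 CPM (log2 2.41 ± 0.21, edgeR adjusted p = 2.61e-12) with extract at 24 h. Acly, which makes it from citrate, was called in none of the 9 comparisons with control.

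Of 8 genes of SREBP cleavage and sterol-regulated degradation, 1, 0 and 3 were higher and 1, 1 and 1 lower with extract, and 2, 2 and 2 higher and 1, 2 and 0 lower with LPS. Rnf139, a ubiquitin ligase of the endoplasmic reticulum, averaged 248 against 71.1 CPM (log2 1.80 ± 0.12, edgeR adjusted p = 4.94e-16) with LPS at 8 h. Rnf145, another ligase, averaged 63.4 against 32.2 CPM (log2 0.97 ± 0.15, edgeR adjusted p = 1.8e-06) with extract at 8 h. Fbxw7, which marks nuclear SREBP for degradation, averaged 27.7 against 65.3 CPM (log2 -1.23 ± 0.24, edgeR adjusted p = 6.13e-05) with extract at 8 h. Of 8 genes of oxysterol formation, storage and lysosomal export, 2, 1 and 1 were higher and 5, 4 and 2 lower with extract, and 3, 2 and 2 higher and 3, 4 and 4 lower with LPS. Ch25h, which makes a hydroxylated cholesterol that holds SREBP back, averaged 109 against 1.58 CPM (log2 6.21 ± 0.41, edgeR adjusted p = 3.08e-16) with LPS at 8 h. With extract Ch25h averaged 8.41 against 1.58 CPM (log2 2.52 ± 0.42, edgeR adjusted p = 6.4e-06) at 8 h and 11.6 against 0.249 CPM (log2 5.19 ± 0.56, edgeR adjusted p = 1.11e-09) at 24 h, and with IL-4 at 24 h 8.57 against 0.249 CPM (log2 4.73 ± 0.58, edgeR adjusted p = 9.83e-08). The Ch25h ratios at 24 h rest on a control level from few reads. The part of the Ch25h product in the member levels was not tested. Lipa, the lysosomal acid lipase, averaged 533 against 2903 CPM (log2 -2.45 ± 0.19, edgeR adjusted p = 7.69e-14) with LPS at 24 h. Soat1, which esterifies cholesterol for storage, averaged 454 against 1083 CPM (log2 -1.25 ± 0.17, edgeR adjusted p = 1.33e-07) with extract at 8 h.

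Of 7 LXR genes and targets, 2, 2 and 1 were higher and 2, 2 and 4 lower with extract, 3, 1 and 1 higher and 1, 2 and 5 lower with LPS, and 1, 1 and 1 higher and 1, 1 and 2 lower with IL-4. Abca1, a cholesterol exporter, averaged 289.9 against 64.2 CPM (log2 2.17 ± 0.21, edgeR adjusted p = 5.11e-11) with extract at 8 h. It averaged 660.0 against 203 CPM (log2 1.70 ± 0.23, edgeR adjusted p = 1.13e-07) with LPS at 72 h. Abcg1, its partner in export, averaged 39.3 against 176 CPM (log2 -2.16 ± 0.13, edgeR adjusted p = 1.54e-16) with extract at 8 h. It averaged 323 against 176 CPM (log2 0.88 ± 0.13, edgeR adjusted p = 2.4e-06) with IL-4 at 8 h. Apoe, a carrier of exported cholesterol, averaged 1616 against 4029.6 CPM (log2 -1.32 ± 0.22, edgeR adjusted p = 1.26e-05) with extract at 72 h. Of 7 genes of the isoprenoid and dolichol branch, 0, 1 and 3 were higher and 0 lower with extract, and 2, 3 and 2 higher and 1, 0 and 1 lower with LPS. Pdss1, which builds the tail of ubiquinone, averaged 13.6 against 3.25 CPM (log2 2.05 ± 0.22, edgeR adjusted p = 1.75e-10) with LPS at 8 h, the same direction as Ggps1 on the neighbouring branch.

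Some members share exon bases with other annotated genes, and the strand setting of the counting is not stated in the labels used here. Fdps shares 26.7% of its exon bases with Gm43738 on its own strand, and Tm7sf2 12.1% with Vps51 on its own strand. Fdft1 shares 18.3% with Ctsb, Scap 13.2%, Hmgcs1 12.1% and Idi1 9.22% with genes on the opposite strand, whose reads cannot be told apart from theirs if strand was not used. Values of these members are uncertain to that extent.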

How the data were processed

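RNA of 44 cultures was selected by polyA, made into CATS libraries and sequenced as single-end 50 bp reads, per the labels' protocols. Per the submitters' processing notes, the genome was mm10 and the tools included cutadapt, Bowtie2, TopHat2 2.1.1, HTSeq, DESeq and edgeR. Which step each served, and whether counting used strand, was not stated in the labels used here. The authors deposited raw read counts per gene; 5 summary rows were left out, of which the ambiguous reads came to 5.39% over all libraries.

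From these counts, edgeR 4.0.16 (R 4.3.3) with limma 3.58.1 filtered genes (minimum count 10), scaled by TMM, and fitted 1 quasi-likelihood model with 12 group coefficients (32 residual degrees of freedom). P-values were Benjamini-Hochberg adjusted over 14537 genes, with 0.05 as the threshold; levels are TMM-scaled CPM. DESeq2 1.42.0 was an alternative. The fit was tested on simulated data. The genes and lists were chosen with earlier results of these data known. Genes given culture by culture are the called members with the smallest adjusted p: up to 6 sterol enzymes, 4 control genes and 5 fatty acid genes per comparison. Further members, called or not, are given so where their role or their values at another time made the comparison, a choice made with the values seen. Others outside the set come from fixed lists: the 3 of each with the smallest adjusted p, and Ch25h, Abca1, Idh1 and Acly. Same-numbered cultures were checked for pairing by correlating their deviations, which ranged from -0.148 to 0.603 over 12 comparisons. With at least 3 pairs required, all pairs exceeded 0.1 in 3 of the 12 (LPS at 8 and 24 h and extract at 8 h against control). Extract against control at 72 h had only 2 pairs, at 0.249 and 0.284, and was not counted. Gene totals of 908458 to 26616968 counts per library set the precision of low genes. Promoters come from RefSeq and exon overlaps from the GENCODE annotation of GRCm38.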

Additional observations from a re-analysis of the deposited data

Results flagged for a closer look

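In groups of 4 cultures, a culture was singled out when its gap to the nearest other passed Dixon's limit for 4 values, which chance does in about 1 in 20 groups. Of 24 sums, 4 were past this limit: the sterol enzyme sum of control culture 1 at 8 h (655 CPM, others 724 to 732), the control gene sum of IL-4 culture 1 at 24 h (205, others 281 to 292), and the fatty acid sums of that culture (123, others 275 to 299.8) and of LPS culture 1 at 72 h (101, others 183 to 195). Of 248 member levels, 22 were past it (8.87%), and 9 of these were in IL-4 culture 1 at 24 h, the smallest library at 908458 counts. There, Mvk (28.3 CPM), Fdft1 (55.6), Ebp (159) and Scap (39.2) were high, and Sqle (30.5), Cyp51 (50.1), Srebf2 (16.3), Insig1 (43.6) and Scd2 (47.9) were low. LPS culture 1 at 72 h, at 1103271 counts, was low in Acat2 (1.93 CPM), Sqle (15.4) and Scd2 (63.6).

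Elsewhere, extract culture 4 at 8 h was low in Fdft1 (53.4 CPM) and high in Scd2 (71.3), extract culture 2 at 8 h was low in Cyp51 (151), and LPS culture 2 at 8 h was low in Pmvk (3.37) and Msmo1 (85.7). Control cultures stood apart in Tm7sf2 (2.13 CPM, culture 4 at 8 h), Srebf1 (23.0, culture 3 at 8 h) and Acaca (56.0, culture 2 at 24 h). Srebf1 stood at 55.1 CPM in LPS culture 1 at 24 h, and Fads2 at 0.143 CPM in IL-4 culture 1 at 8 h, where the others had 0. The number of members whose effect differed between 72 and 8 h was 21 with extract, 19 with LPS and 17 with IL-4, each tested as a difference of effects in edgeR.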

How the results depend on the processing

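No call of the 317 over all comparisons changed direction in any alternative fit run. With RLE size factors 312 of 317 stayed past the threshold, without the count filter 286, with the replicate block 315, with DESeq2 314, in fits of the compared groups alone 289 of 316, without control cultures numbered 1 at 8 and 24 h 136 of 146, and without the libraries rich in ribosomal RNA, chosen after seeing the data, 283. Calls were also gained: 19 with RLE, 16 without the filter, 12 with the block, 37 with DESeq2, 35 in the groups alone and 5 without the libraries rich in ribosomal RNA. Apart from the fits with 1 culture left out, most counts of called members stayed within 1.5 times. The exceptions were extract against LPS at 72 h without the libraries rich in ribosomal RNA (7, from 11), IL-4 at 72 against 24 h in the groups alone (5, from 15), and control at 24 against 8 h (from 1), with 2 in each of no filter, groups alone and DESeq2, and 0 without control cultures numbered 1 and without the libraries rich in ribosomal RNA; the cause was not tested. The 0 calls rest on edgeR. With 1 culture left out, IL-4 against control at 8 h (2, from 4) and extract against LPS at 72 h (7, from 11) also moved further. So did control at 24 against 8 h (0, from 1).

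Leaving out 1 culture at a time gave 14 to 16, 12 to 16 and 21 to 23 calls for extract against control at 8, 24 and 72 h, 15 to 18, 11 to 14 and 23 to 26 for LPS, and 2 to 5, 2 to 4 and 19 to 24 for IL-4. It gave 21 to 23, 23 to 26 and 7 to 11 for extract against LPS, 0 to 1 and 15 to 19 for control at 24 against 8 h and 72 against 24 h, 20 to 21, 15 to 18 and 14 to 17 for the differences of effect with extract, LPS and IL-4, and 20 to 23, 4 to 6 and 11 to 14 for 72 against 24 h within them. Pairing was seen in the data of 3 of 12 comparisons by the rule above, and is not stated in the labels. The replicate block gave 16 calls for extract and 18 for LPS against control at 8 h, and 15 for LPS at 24 h. For extract at 72 h, where the 2 pairs exceeded 0.1, it gave 22. The block ended 2 calls, Ggps1 with LPS at 72 h and Scap in the extract difference. By the group means of the scaling factors, RLE shifted log2 values by -0.11 for IL-4 at 72 h, and by -0.13 and -0.16 for the extract and IL-4 differences of effect. Low genes such as Fads2 and Tm7sf2 are limited by depth in the smaller libraries, and control at 72 h had at most 4473580 counts.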

Other observations

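Mvd, whose row carried no symbol, stood at 15.8, 19.6, 17.2 and 19.4 CPM in control and 35.8, 35.6 and 40.5 CPM with extract at 24 h (log2 1.04 ± 0.20, edgeR adjusted p = 0.000104). With LPS it was at 10.6, 8.2, 9.18 and 7.36 CPM at 8 h (log2 -1.15 ± 0.21, edgeR adjusted p = 1.97e-05) and 32.8, 34.3, 30.9 and 35.3 CPM at 72 h (log2 -0.12 ± 0.22, edgeR adjusted p = 0.751), so at 72 h it overlapped its control. With IL-4 at 24 h culture 1 stood at 63.2 CPM and the other 3 between 22.6 and 24.4 CPM. IL-4 at 72 h gave 12.2, 21.3 and 13.2 CPM (log2 -1.22 ± 0.23, edgeR adjusted p = 0.000115).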
